A study of Mus with 4 samples.

Results

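The mitochondrial carrier genes were described from 2 lists of N6-methyladenosine (m6A) peaks in interscapular brown adipose tissue (iBAT), 1 list from *Wtap* flox/flox control mice and 1 from *Wtap*-BKO mice. Members were the listed genes whose name begins with *Slc25a*, together with *Ucp2* and *Ucp3*. They were 33 of the 11431 genes with a peak in either list. On them lay 58 of the 18400 *Wtap* flox/flox peaks, over 30 genes, and 47 of the 18693 *Wtap*-BKO peaks, over 27 genes. A RefSeq gene table of GRCm38.p6 held 49 protein-coding genes of the same names. The 16 without a peak in either list were *Slc25a2*, *Slc25a5*, *Slc25a13*, *Slc25a14*, *Slc25a16*, *Slc25a18*, *Slc25a21*, *Slc25a29*, *Slc25a30*, *Slc25a31*, *Slc25a36*, *Slc25a39*, *Slc25a40*, *Slc25a41*, *Slc25a43* and *Slc25a54*. A gene without a listed peak had none past the authors' threshold, which is not a measurement that its transcript lacked m6A.

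All mice were on the C57BL/6 strain, 8 weeks old and kept on normal chow. *Wtap* flox/flox mice carry loxP sites in both *Wtap* alleles and no Cre. *Wtap*-BKO mice carry the same floxed alleles with *Ucp1*-iCre, a Cre expressed from the *Ucp1* locus, which removes *Wtap* from brown adipocytes and leaves it in the other cells of the depot. Each genotype was represented by 1 immunoprecipitate (IP) and 1 input, 4 samples in all, and every sample was a pool of several mice. There were therefore no replicates, no test between genotypes was possible, and the 95% Wilson intervals given for shares cover counting error only.

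SLC25 carriers are transporters of the inner mitochondrial membrane that exchange nucleotides, phosphate, carboxylates, amino acids and cofactors between cytosol and matrix. UCP1, the thermogenic uncoupling protein of brown fat, belongs to the same family, and UCP2 and UCP3 are its closest relatives. WTAP is a subunit of the METTL3-METTL14 complex that writes m6A on mRNA. In MeRIP-seq, poly(A)+ RNA is fragmented and precipitated with an antibody against m6A, which also binds the methylated adenosine that can stand next to the cap. The assay does not tell these marks apart.

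Each peak carried a fold enrichment of IP over input within its own genotype and a false discovery rate (FDR), here given as its log10. The lists were called separately, so neither value shares a scale between them. Fold enrichments printed for both lists are not to be read as a ratio between genotypes. The strength of a peak is therefore given as its rank, the percentage of peaks of its own list that had a larger FDR. An FDR also depends on how many reads cover the transcript, so a change of rank does not measure m6A alone. The part of transcript amount in such changes was not tested. A peak counted as found if any peak of the other list overlapped it, on its strand, by 1 exonic base or more. It was placed at the 5′ or 3′ end when the middle of its exonic bases lay within 1000 bp of that end of the gene, for genes spanning at least 3000 bp. Because RNA came from whole tissue, fewer cells of a type and less RNA per cell cannot be told apart in any loss or gain of a peak.

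The *Wtap* transcript had 4 peaks in each list, all found in the other, and peaks do not measure how much transcript was present. Brown adipocyte markers had a peak for 12 of 12 genes, 11 in both lists and 1 in *Wtap* flox/flox only, with 33 *Wtap* flox/flox and 31 *Wtap*-BKO peaks. Markers of muscle and immune cells had more *Wtap*-BKO than *Wtap* flox/flox peaks, where 14.9% of all genes were in *Wtap*-BKO only. Peaks on 15 skeletal muscle markers numbered 6 in *Wtap* flox/flox, on 6 genes, and 20 in *Wtap*-BKO, on the same 6 and 7 more. Those on 10 macrophage markers numbered 9 and 23, with 4 genes added in *Wtap*-BKO to the 5 that both lists held. Lymphocyte markers, 10 genes of T and B cells, had 3 and 10 peaks, on 2 genes of both lists and 4 of *Wtap*-BKO alone. The 7 fibroblast genes were in both lists, with 10 and 11 peaks. No marker of these other cell types had a peak in *Wtap* flox/flox only, and their part in the carrier results was not tested.

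Fewer and shorter peaks covered the carrier transcripts in *Wtap*-BKO mice. Exonic bases under carrier peaks numbered 17206 in the *Wtap* flox/flox list and 10438 in the *Wtap*-BKO list, beside 5786750 and 5250521 over all genes. Of the 33 genes, 26 had fewer exonic bases under peaks in *Wtap*-BKO, a property that 52.3% of all genes had. The median carrier peak covered 240 bases in *Wtap* flox/flox versus 181 in *Wtap*-BKO, and the median of all peaks was 240 and 210. There were 13 genes with more *Wtap* flox/flox peaks, 6 with more *Wtap*-BKO peaks and 14 with equal numbers, where the share of all genes was 31.3% with more *Wtap* flox/flox and 33.3% with more *Wtap*-BKO peaks. The 6 genes with more *Wtap*-BKO peaks were *Slc25a12*, *Slc25a23*, *Slc25a24*, *Slc25a32*, *Slc25a45* and *Slc25a51*. Carrier peaks were of ordinary rank by FDR, with a median of 57 in *Wtap* flox/flox versus 57.5 in *Wtap*-BKO. Their fold enrichment was low within their lists, with a median of 3.64 in *Wtap* flox/flox versus 2.72 in *Wtap*-BKO, beside 6.58 and 4.65 over all peaks.

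**Figure D1:**
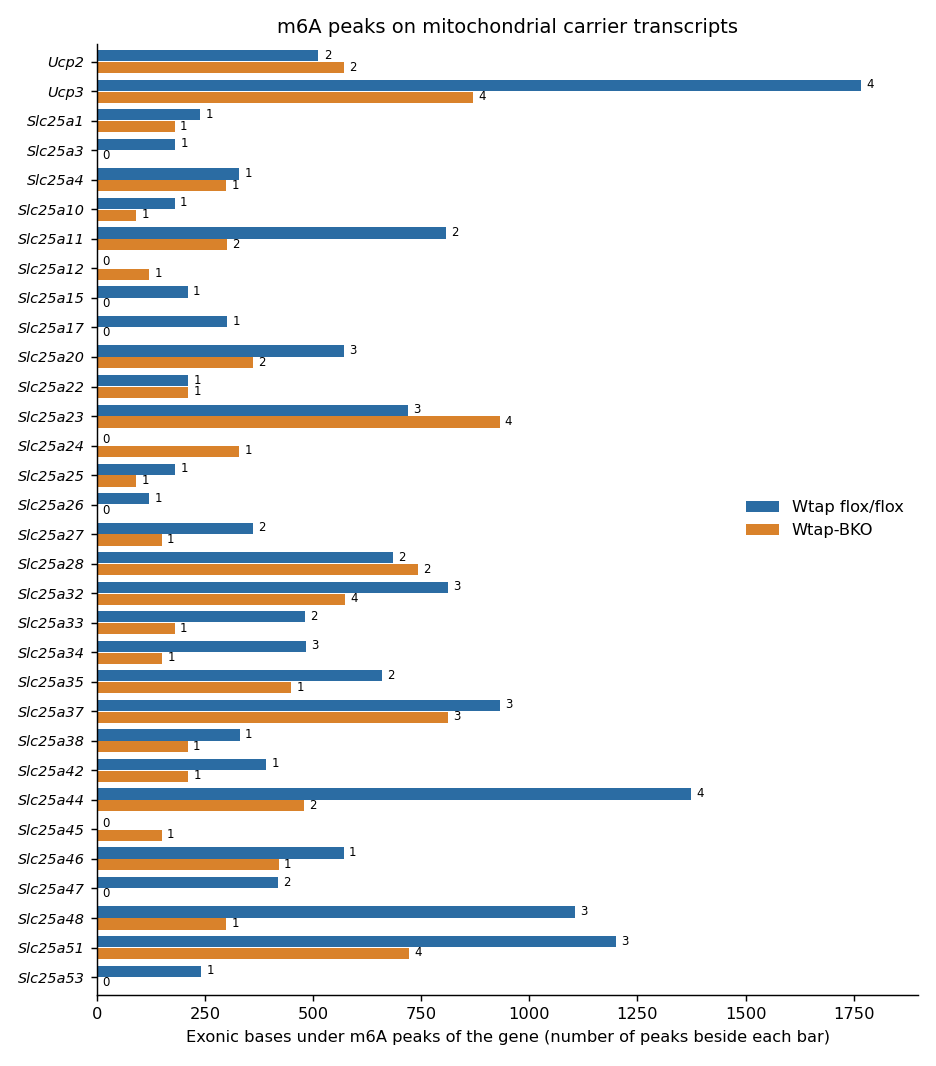
Exonic bases (x axis) under all peaks of each of 32 carrier genes in the *Wtap* flox/flox list (blue) and the *Wtap*-BKO list (orange), with the number of peaks printed beside each bar. The blue bar is the longer one in 25 of them, and the largest total was that of *Ucp3* in *Wtap* flox/flox.

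The plot of exonic bases by gene shows each total with its number of peaks. The largest *Wtap* flox/flox totals were 1767 bases on *Ucp3*, 1374 on *Slc25a44* and 1200 on *Slc25a51*, and these genes had 870, 478 and 722 bases in *Wtap*-BKO. *Slc25a23* ran the other way, with 720 bases in *Wtap* flox/flox versus 931 in *Wtap*-BKO.

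Presence by gene was close to that of other genes. Both lists held a peak for 24 of 33 carrier genes, and for 70.1% of all genes. Another 6 were listed for *Wtap* flox/flox alone (15.0% of all genes) and 3 for *Wtap*-BKO alone (14.9% of all genes). Overlap differed more between the lists. Of the 58 *Wtap* flox/flox carrier peaks, 23 were not found in *Wtap*-BKO (39.7%, interval 28.1% to 52.5%), beside 32.2% of all *Wtap* flox/flox peaks. Of the 47 *Wtap*-BKO carrier peaks, 10 were not found in *Wtap* flox/flox (21.3%, interval 12% to 34.9%), beside 32.0% of all *Wtap*-BKO peaks. Both background shares lie within the intervals of the carrier genes. Where peaks of the lists met, 22 of 37 *Wtap*-BKO carrier peaks lay wholly inside a *Wtap* flox/flox peak (59.5%), beside 47.8% of all matched *Wtap*-BKO peaks.

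Among peaks with an FDR under 1e-05, those that only *Wtap* flox/flox held were more common on carrier genes than over all genes. This threshold is not strict, since 63.1% of all *Wtap* flox/flox peaks passed it. In *Wtap* flox/flox, 15 of 44 carrier peaks under this FDR were not found in *Wtap*-BKO (34.1%, interval 21.9% to 48.9%). That compares with 20.4% of all such peaks, a share below the interval. The 15 included peaks at ranks of 37.0 and 46.8. In *Wtap*-BKO, 1 of 30 was not found (3.33%, interval 0.591% to 16.7%), against 15.4% of all such peaks, which is inside the interval. The 15 *Wtap* flox/flox peaks lay on 13 genes, *Slc25a3*, *Slc25a10*, *Slc25a15*, *Slc25a17*, *Slc25a20*, *Slc25a32*, *Slc25a33*, *Slc25a35*, *Slc25a42*, *Slc25a44*, *Slc25a47*, *Slc25a48* and *Ucp3*. The *Wtap*-BKO peak was on *Slc25a51*. Peaks on 1 gene share their RNA and are not independent, which the intervals do not include.

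**Figure D2:**
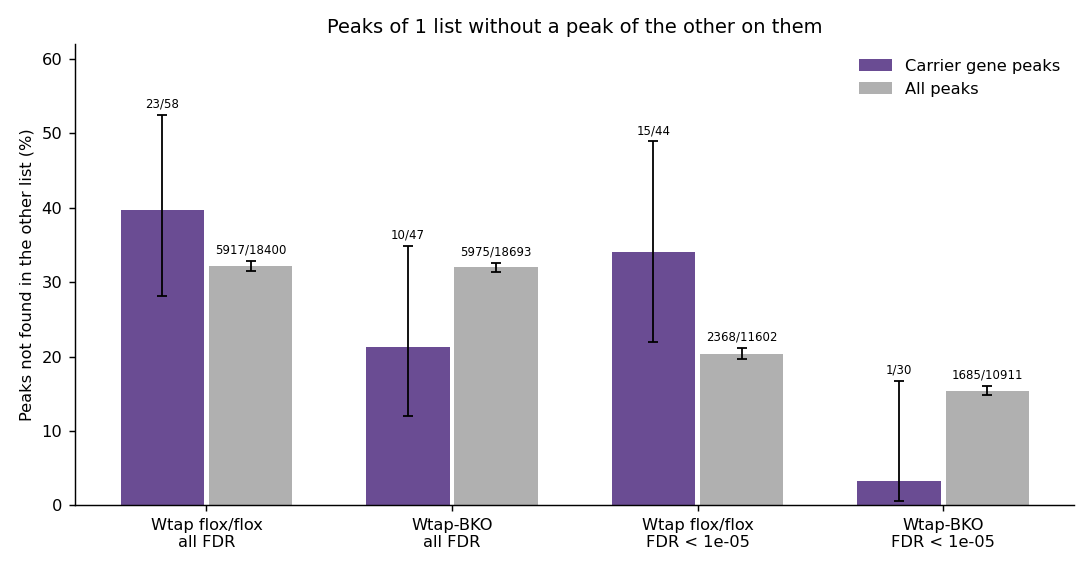
Percentage of peaks of 1 list that shared no exonic base with a peak of the other (y axis, from 0), for carrier gene peaks (purple) and all peaks (grey), in each list at the authors' threshold and at an FDR under 1e-05. Whiskers are 95% Wilson intervals and the counts stand above them. The purple bar is above the grey one for *Wtap* flox/flox peaks and below it for *Wtap*-BKO peaks.

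The plot of shares not found sets these 4 comparisons beside their backgrounds, and its wide whiskers come from the small number of carrier peaks.

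Carrier peaks lay at the 5′ end of their gene more often than other peaks, in both lists, while the 3′ shares had intervals that reached those of all peaks. Of 54 placed *Wtap* flox/flox peaks, 13 were at the 5′ end (24.1%, interval 14.6% to 36.9%; all peaks 11.4%), 17 at the 3′ end (31.5%, interval 20.7% to 44.7%; all peaks 21.7%) and 24 between them. Of 46 placed *Wtap*-BKO peaks, 12 were at the 5′ end (26.1%, interval 15.6% to 40.3%; all peaks 13.1%), 12 at the 3′ end (26.1%, with the same interval; all peaks 19.2%) and 22 between them. The 5′ peaks had their middle 44 to 594 bp from the gene start in *Wtap* flox/flox and 44 to 583 bp in *Wtap*-BKO. Each lay on a different gene.

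Most peaks at the 5′ end of carrier genes were found in the other list, as were most 5′ peaks of all genes. In *Wtap* flox/flox, 11 of 13 carrier peaks at the 5′ end were found in *Wtap*-BKO (84.6%, interval 57.8% to 95.7%). Of all 5′ peaks 71.1% were found and 28.9% were not. Away from the 5′ end, 23 of 41 were found (56.1%, interval 41.0% to 70.1%). Of all such peaks 68.5% were found and 31.5% were not. Both shares of all peaks lie inside the carrier intervals of 57.8% to 95.7% and 41.0% to 70.1%. These intervals overlap. In *Wtap*-BKO, 11 of 12 peaks at the 5′ end were found in *Wtap* flox/flox (91.7%, interval 64.6% to 98.5%). Of all *Wtap*-BKO 5′ peaks 61.2% were found, a share below that interval, and 38.8% were not. Elsewhere 25 of 34 were found (73.5%, interval 56.9% to 85.4%). Of all such *Wtap*-BKO peaks 70% were found, a share inside that interval, and 30.0% were not. The unmatched 5′ peaks were those of *Slc25a3* and *Slc25a34* in *Wtap* flox/flox, and that of *Slc25a10* in *Wtap*-BKO.

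Matched 5′ peaks ranked higher by FDR in *Wtap*-BKO, while matched peaks elsewhere moved in both directions. All 11 matched 5′ peaks ranked higher in *Wtap*-BKO (interval 74.1% to 100%), as did 70.9% of all matched 5′ peaks. Among them were those of *Slc25a1*, *Slc25a11*, *Slc25a20*, *Slc25a23*, *Slc25a28*, *Slc25a33*, *Slc25a35*, *Slc25a44*, *Ucp2* and *Ucp3*. The median rise was 15.9 percentage points of rank (range 2.03 to 45.3), beside 10.1 points over all matched 5′ peaks. Away from the 5′ end, 15 of 23 matched carrier peaks ranked lower in *Wtap*-BKO (65.2%, interval 44.9% to 81.2%). The share of all such peaks was 46.3%, inside the interval. Between the ends 10 of 14 ranked lower (71.4%, interval 45.4% to 88.3%; all such peaks 45.6%). At the 3′ end 5 of 9 did (55.6%, interval 26.7% to 81.1%; all such peaks 48.9%). Over the 23 peaks the median difference was -5.69 points (range -71.7 to 48.4), beside 1.29 over all peaks away from the 5′ end. Over all places, 16 of 35 ranked lower, beside 44.0% of all matched peaks. By the rank of fold enrichment in place of FDR, 7 of the 11 5′ peaks ranked higher (63.6%), close to the 59.2% of all matched 5′ peaks. The other 4, on *Slc25a1*, *Slc25a23*, *Slc25a28* and *Ucp3*, ranked lower by that measure. The comparison by place was chosen after the values were seen and is a description of these samples.

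**Figure D3:**
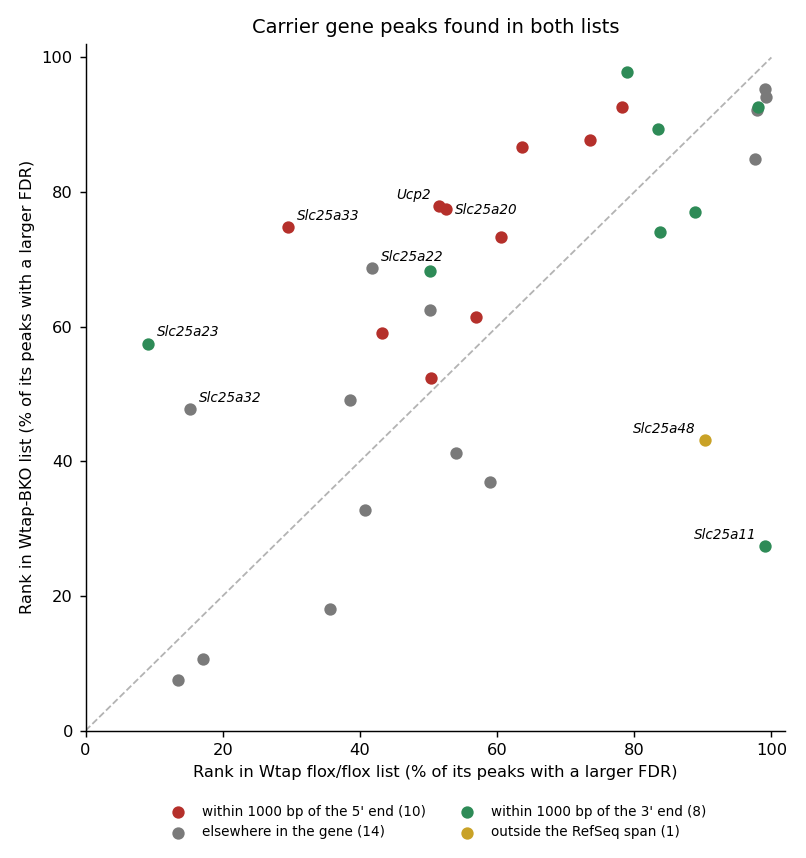
Rank by FDR of 33 of the 35 matched *Wtap* flox/flox carrier peaks (x axis) and of the *Wtap*-BKO peak sharing most bases with it (y axis), both as the percentage of the own list with a larger FDR. Points above the dashed line ranked higher in *Wtap*-BKO, which all 10 red points (5′ end) did, and points that moved by at least 25 percentage points carry their gene name.

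In the plot of both ranks, *Slc25a11* appears with a 3′ peak far below the line and a 5′ peak above it. Of all 35 matched carrier peaks, 19 were longer than their *Wtap*-BKO peak (background 47.8%). At the 5′ end 3 of 11 were longer, 4 shorter and 4 equal, beside 32.4% longer among all matched 5′ peaks. Away from it 15 of 23 were longer, beside 50.3% of all such peaks.

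By role, the groups of carriers below hold 2 to 9 genes with a peak, too few to set their presence apart from the 70.1% of all genes that both lists held. Of 5 uncoupling relatives 3 had a peak, all in both lists, with 8 *Wtap* flox/flox and 7 *Wtap*-BKO peaks. *Ucp2* and *Ucp3*, neighbours on chromosome 7, showed different patterns. UCP2 is made in many tissues and UCP3 mainly in muscle and brown fat. *Ucp2* had 2 peaks in each list, all found. Its 5′ peak at chr7:100493337-100493846 ranked above 51.6% of the *Wtap* flox/flox list, and the *Wtap*-BKO peak there above 77.9%. Its 3′ peak at chr7:100499351-100499681 went from a rank of 79.0 to 97.8, with a fold enrichment of 3.47 in *Wtap* flox/flox versus 5.76 in *Wtap*-BKO. Both *Ucp2* peaks were thus stronger within the *Wtap*-BKO list and also longer there, 181 and 211 bases at the 5′ end and 331 and 361 at the 3′ end.

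*Ucp3* had 4 peaks in each list. The 5′ peak was identical in position, chr7:100472990-100473080, and ranked at 43.2 in *Wtap* flox/flox versus 59.1 in *Wtap*-BKO. Its fold enrichment was 3.50 in *Wtap* flox/flox versus 2.34 in *Wtap*-BKO. A peak split over 2 exons, from 100480373 to 100481891, covered 330 bases at a rank of 40.8 in *Wtap* flox/flox and 121 bases at 32.8 in *Wtap*-BKO. The longest carrier peak of either list was the *Wtap* flox/flox peak of 1106 bases at chr7:100485029-100486134, with a log10 FDR of -169 and a fold enrichment of 8.59. In its place the *Wtap*-BKO list held 2 separate peaks, of 180 bases with a rank of 53.7 and of 478 bases with a rank of 92.6, which together left parts of the *Wtap* flox/flox peak uncovered. The last *Wtap* flox/flox peak, chr7:100486193-100486432, 120 bp from the gene end, had a log10 FDR of -22.8 and was not found.

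*Slc25a27*, which encodes the brain-enriched relative UCP4, had 2 weak *Wtap* flox/flox peaks, at ranks of 35.7 and 9.70, and 1 *Wtap*-BKO peak at 18.1 that shared 90 bases with the first. *Slc25a14* and *Slc25a30* had none. *Ucp1* itself, outside the *Ucp2* and *Ucp3* rule, had 1 *Wtap* flox/flox peak with a rank of 83.4 and 2 *Wtap*-BKO peaks, the stronger at 76.5.

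Of 11 adenine nucleotide and phosphate carriers listed, 7 had a peak, 4 of them in both lists, and each list held 8 peaks. *Slc25a4*, the ADP/ATP exchanger ANT1, had 1 peak near its 3′ end in each list, chr8:46207392-46208069 in *Wtap* flox/flox, with chr8:46207422-46208069 in *Wtap*-BKO. They covered 329 and 299 bases, ranked at 83.5 and 89.4, and had fold enrichments of 1.66 and 2.28. The signal on *Slc25a4* was thus present and of like rank in both lists. *Slc25a5*, an ADP/ATP exchanger made in most tissues, had no peak in either list.

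*Slc25a3*, the phosphate carrier, had 1 peak 167 bp from the gene start in *Wtap* flox/flox only, chr10:91123789-91123969, with a log10 FDR of -12.7, a rank of 62.8 and a fold enrichment of 3.04. It was the only 5′ carrier peak with an FDR under 1e-05 that was not found. *Slc25a42*, a carrier of coenzyme A, had a strong *Wtap* flox/flox peak at chr8:70186288-70186678, with a log10 FDR of -87.2 and a rank of 94.6. Nothing in the *Wtap*-BKO list overlapped it, and the gene's 1 *Wtap*-BKO peak, ranked at 37.1, began at 70194104, nearer the gene start. *Slc25a17*, the peroxisomal member, had 1 *Wtap* flox/flox peak, chr15:81319480-81323613, of 301 bases over 2 exons near its 3′ end, with a log10 FDR of -15.9, a rank of 68.0 and a fold enrichment of 2.29, and none in *Wtap*-BKO.

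The ATP-Mg/phosphate carriers, which calcium regulates, kept or gained peaks. *Slc25a23* had 3 *Wtap* flox/flox peaks, all found, and 4 in *Wtap*-BKO. Its strongest, chr17:57045057-57045505, ranked at 97.9 in *Wtap* flox/flox, at 92.2 in *Wtap*-BKO, and shortened from 449 to 300 bases. Its 3′ peak ran from 91 bases at a rank of 9.11 to 270 bases at 57.5, the largest rise by FDR rank of a matched carrier peak. The fold enrichment of this peak was low in both lists, 1.41 in *Wtap* flox/flox versus 1.67 in *Wtap*-BKO. *Slc25a24* had a peak in *Wtap*-BKO only, chr3:109166369-109166697, with a log10 FDR of -4.77, a rank of 39.8 and a fold enrichment of 9.10. *Slc25a25* had 1 weak peak in each list, chr2:32416011-32416191 in *Wtap* flox/flox at a rank of 17.2 with a fold enrichment of 2.53, and chr2:32416071-32416161 in *Wtap*-BKO at 10.6 with 2.18. By the rank of fold enrichment these 2 peaks stood at 11.2 and 12.3.

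All 5 carboxylate carriers with a peak, of 6 listed, had one in both lists, with 9 *Wtap* flox/flox and 6 *Wtap*-BKO peaks. *Slc25a11*, the oxoglutarate-malate carrier of the malate-aspartate shuttle, held the largest fall of a matched peak. Its 3′ peak at chr11:70644196-70644823 covered 628 bases with a log10 FDR of -306 and a rank of 99.1 in *Wtap* flox/flox. The *Wtap*-BKO peak inside it covered 120 bases with a log10 FDR of -3.55 and a rank of 27.4. On the same transcript the 5′ peak at chr11:70646859-70647038 had the same position in both lists, with ranks of 56.9 and 61.5. On this transcript the 3′ peak fell in rank and the 5′ peak did not.

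*Slc25a1*, the citrate carrier, kept its single 5′ peak, of 239 and 179 bases at ranks of 50.4 and 52.4. Its fold enrichments were 2.54 in *Wtap* flox/flox versus 1.39 in *Wtap*-BKO. *Slc25a10*, the dicarboxylate carrier, had its *Wtap* flox/flox peak at chr11:120498532-120498711, with a log10 FDR of -12.4, and its *Wtap*-BKO peak 107 bp from the gene start at a rank of 24.6, so that no base was shared. The *Wtap*-BKO peak also shared bases with a peak of the opposite strand, and without knowledge of strand its reads cannot be assigned to 1 gene. *Slc25a35*, a member without an established substrate, kept a long 5′ peak of 539 and 449 bases at ranks of 73.6 and 87.7, while its 3′ peak, chr11:68972064-68972183 with a log10 FDR of -6.90, was not found. *Slc25a34* had 3 *Wtap* flox/flox peaks at ranks of 13.9 to 33.7 and 1 *Wtap*-BKO peak at 23.3, none overlapping.

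**Figure D4:**
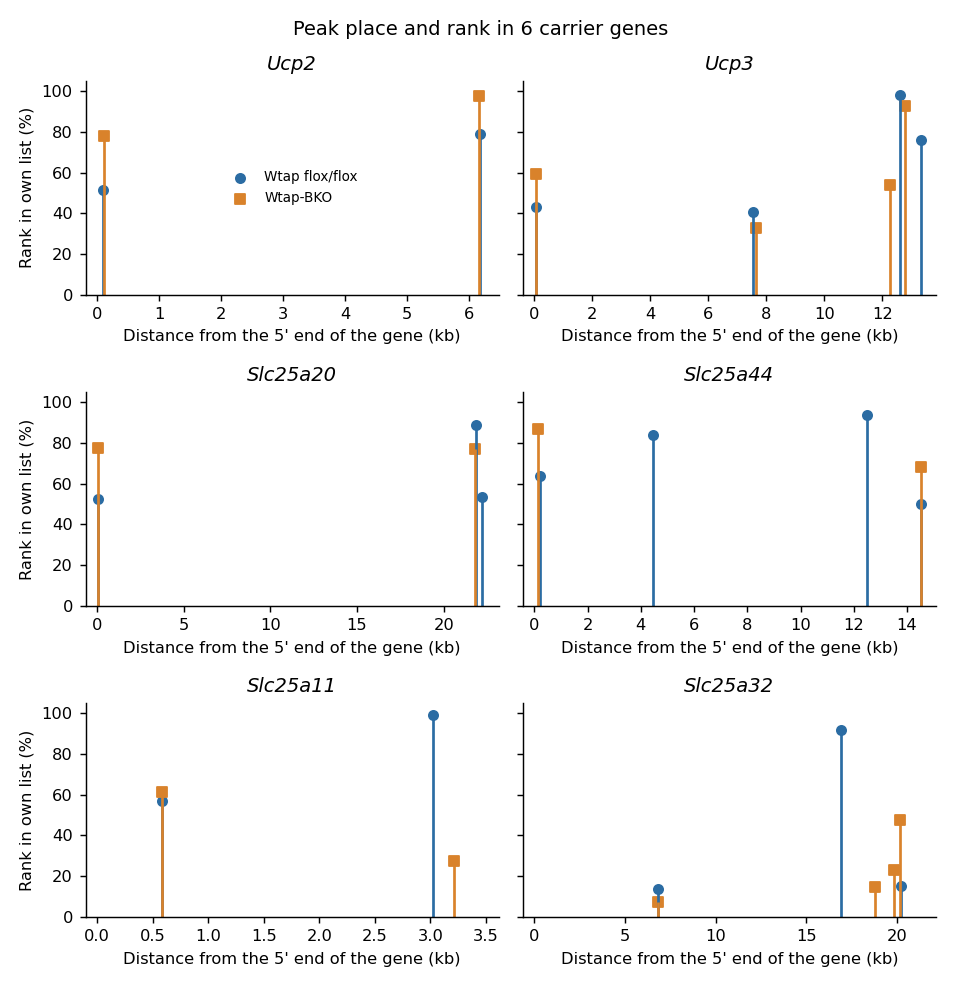
Place of each peak as the distance of its middle from the 5′ end of the gene in kb (x axis) and its rank in its own list in percent (y axis) for *Ucp2*, *Ucp3*, *Slc25a20*, *Slc25a44*, *Slc25a11* and *Slc25a32*, in *Wtap* flox/flox (blue circles) and *Wtap*-BKO (orange squares). The first peak from the 5′ end has the higher square in all genes but *Slc25a32*, and the tall blue line of *Slc25a32* and both inner ones of *Slc25a44* have no orange counterpart.

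The plot of peak place and rank shows 6 genes chosen after their values were seen. The first peak of *Slc25a32* lies 6833 bp from the gene start and is not a 5′ peak by the rule used here.

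Amino acid, choline and acylcarnitine carriers had a peak in 9 of 13 listed genes, 5 of them in both lists, and their peaks numbered 15 and 9. *Slc25a44* carries branched-chain amino acids into brown fat mitochondria. It had 4 *Wtap* flox/flox peaks and 2 in *Wtap*-BKO, 1 at each end of the gene. The 5′ peak, chr3:88421133-88425139 over 2 blocks, ranked at 63.6, and the *Wtap*-BKO peak at chr3:88424901-88425139 at 86.7. The 3′ peak at chr3:88410498-88410766 ranked at 50.2 and 68.3. Between them, chr3:88412436-88412823 had a log10 FDR of -76.0 (rank 93.6, fold enrichment 4.91) and chr3:88420537-88420835 one of -34.5 (rank 83.7, fold enrichment 3.16), and neither was found. The 2 inner peaks were thus the stronger ones in *Wtap* flox/flox, and only the outer ones were listed in *Wtap*-BKO. RefSeq also places *Gm33513* over the 5′ peak.

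*Slc25a20*, the carnitine-acylcarnitine carrier that brings fatty acids to oxidation, had 3 *Wtap* flox/flox peaks and 2 in *Wtap*-BKO. Its 5′ peak, chr9:108662118-108662297, was at the same position in both lists, with ranks of 52.5 and 77.5 and fold enrichments of 2.60 and 3.48. The peak at chr9:108683864-108684133 fell from a rank of 88.9 to 77.0 and from 270 to 180 bases. The last, chr9:108684282-108684402, with a log10 FDR of -8.78, was not found.

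*Slc25a15*, the ornithine carrier of the urea cycle, had a peak in *Wtap* flox/flox only, chr8:22377647-22377856, with a log10 FDR of -10.2 and a fold enrichment of 9.12. *Slc25a47*, a liver-enriched member, had 2 in *Wtap* flox/flox only, at chr12:108856278-108856457 with a log10 FDR of -5.02 and at chr12:108836285-108836523 with -4.89, the second outside the RefSeq span of the gene. *Slc25a12*, the aspartate-glutamate carrier aralar, had a peak in *Wtap*-BKO only, chr2:71274838-71274958, with a log10 FDR of -2.71 and a fold enrichment of 5.31. *Slc25a45*, of less certain substrate, likewise had one in *Wtap*-BKO only, chr19:5885141-5885290, with a log10 FDR of -3.11 and a fold enrichment of 2.45. The peaks of *Slc25a12*, *Slc25a24* and *Slc25a45* ranked at 15.2 to 39.8, whereas those of the 6 *Wtap* flox/flox only genes ranked at 31.0 to 68.0.

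*Slc25a48*, a choline carrier, had 3 *Wtap* flox/flox peaks whose middles lay past the 3′ end of its RefSeq span. They began at 56472299, 56472687 and 56473344 on chromosome 13, the first of them straddling the end of the span at 56472367, with log10 FDRs of -11.4, -6.02 and -54.1. Only the strongest was found, and its rank went from 90.3 to 43.1 as its length went from 627 to 299 bases. *Slc25a22*, a glutamate carrier, kept its peak at an identical position, with ranks of 41.7 and 68.7. *Slc25a38*, which supplies glycine for haem synthesis, had 1 peak in each list, at ranks of 59.0 and 36.9.

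Cofactor, pyrimidine nucleotide and iron carriers held 16 peaks in each list, on 7 of 12 genes listed, 6 of them in both lists. *Slc25a32*, which carries folate and flavin, had its strongest peak in *Wtap* flox/flox only, chr15:39095514-39097524, of 600 bases over 2 blocks with a log10 FDR of -63.4, a rank of 92.0 and a fold enrichment of 10.2. Its other 2 *Wtap* flox/flox peaks, at ranks of 13.5 and 15.2, were found, and the *Wtap*-BKO list added 2 more at 14.7 and 23.1. The count of peaks on *Slc25a32* thus rose from 3 to 4 while its strongest peak was not found. *Slc25a33*, a pyrimidine nucleotide carrier, had the largest rise at a 5′ end, at chr4:149774038-149774217, the same position in both lists, with ranks of 29.5 and 74.8. Its 3′ peak, chr4:149744485-149744784 with a log10 FDR of -16.2, was not found.

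*Slc25a51*, the carrier of NAD+, had 3 *Wtap* flox/flox peaks, all found, and 4 in *Wtap*-BKO. Its longest, chr4:45399157-45399875, had 719 bases and an FDR given as 0 in *Wtap* flox/flox, and the *Wtap*-BKO peak inside it had 210 bases at a rank of 94.1. The peak next to it, from 45399935 to 45404781, ranked at 97.6 and 84.9 and went from 300 to 210 bases. Another, chr4:45397300-45397480, ranked at 50.2 and 62.5. The added *Wtap*-BKO peak, chr4:45397929-45398049, had a log10 FDR of -5.17 and a fold enrichment of 1.43.

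Both iron importers had most of their peaks found. *Slc25a28* (mitoferrin 2) kept a 5′ peak at ranks of 78.2 and 92.6 and a 3′ peak at 83.8 and 74.0. The fold enrichment of the 5′ peak was 42.7 in *Wtap* flox/flox versus 14.4 in *Wtap*-BKO, at fold enrichment ranks of 98.9 and 88 in their own lists. *Slc25a37* (mitoferrin 1) had 3 peaks in each list. Of its *Wtap* flox/flox peaks 2 were found, at ranks of 54.0 and 41.2 for the longer and 38.6 and 49.1 for the other. The longer also met another *Wtap*-BKO peak, chr14:69248716-69248806 at a rank of 15.5, so all 3 *Wtap*-BKO peaks were found. *Slc25a26*, which imports S-adenosylmethionine, the methyl donor of m6A, had 1 weak *Wtap* flox/flox peak, chr6:94603866-94603985, with a log10 FDR of -4.74, and none in *Wtap*-BKO.

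Of the remaining members, *Slc25a46*, an outer membrane protein, had 1 peak in each list, with ranks of 99.1 and 95.3, lengths of 570 and 420 bases and fold enrichments of 8.22 and 2.98. *Slc25a53*, without an assigned substrate, had 1 *Wtap* flox/flox peak, chrX:137003536-137003776, with a log10 FDR of -4.25 and a fold enrichment of 19.5. RefSeq places *Gm15038* over the same bases.

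**Figure D5:**
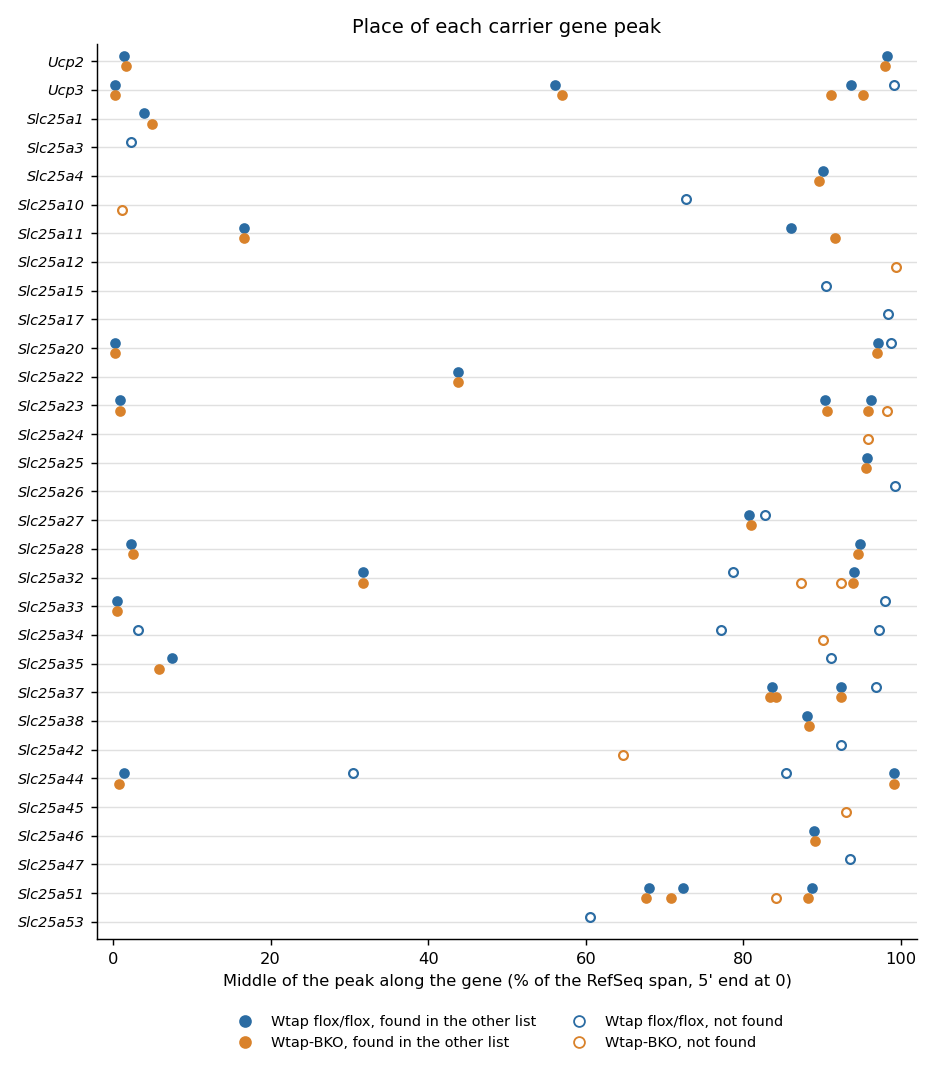
Middle of each placed peak along its gene, as a percentage of the RefSeq span from the 5′ end (x axis), for carrier genes with a peak inside the span, in *Wtap* flox/flox (blue, upper) and *Wtap*-BKO (orange, lower). Filled points were found in the other list and open points were not, and most open points lie right of the middle while most points at the left edge are filled.

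In the plot of place along the gene, 10 of the 23 *Wtap* flox/flox peaks that were not found lay between the ends, 8 at the 3′ end and 2 at the 5′ end, and 3 had their middle outside the RefSeq span. Of all *Wtap* flox/flox peaks that were not found, 52.2% lay between the ends, 21.8% at the 3′ end and 8.77% at the 5′ end, and 17.2% had no place. In 10 genes every peak was found both ways, among them *Slc25a1*, *Slc25a4*, *Slc25a11*, *Slc25a22*, *Slc25a25*, *Slc25a28*, *Slc25a38*, *Slc25a46* and *Ucp2*. In *Slc25a10*, *Slc25a34* and *Slc25a42*, both lists had peaks and none overlapped. The same shares over all genes were not computed, so these 2 counts of genes do not set the carriers apart from other genes.

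Other transporters of mitochondria gave a comparison outside the family. Of 26 listed genes, such as the VDAC porins, the calcium uniporter and the carnitine palmitoyltransferases, 19 had a peak, 12 in both lists. Another 6 were in *Wtap* flox/flox only (*Vdac3*, *Sfxn1*, *Mcu*, *Micu3*, *Abcb8* and *Slc8b1*) and *Smdt1* in *Wtap*-BKO only, beside shares of all genes of 15.0% and 14.9%. Their peaks numbered 27 in *Wtap* flox/flox, of which 12 were found, and 18 in *Wtap*-BKO, of which 11 were found, where 67.8% and 68.0% of all peaks were found. At the 5′ end 4 of 6 matched peaks ranked higher in *Wtap*-BKO, beside 70.9% of all matched 5′ peaks, and away from it 5 of 6 ranked lower, beside 46.3% of all such peaks. These counts are small, and the difference from the carriers was not tested.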

How the data were processed

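Poly(A)+ RNA of pooled iBAT was profiled by MeRIP-seq with 150 bp paired reads, as 1 IP and 1 input per genotype. The submitters' processing notes name fastp 0.19.11, BWA 0.7.12, HOMER 4.9.1 and GRCm38.p6. The study's methods name MACS2 as the caller, but the lists, which split peaks into exon blocks of Ensembl genes, are laid out as exomePeak writes them, and the caller could not be settled. The authors deposited for each peak a p-value, 2 scores (log10 of that p-value, log10 of the FDR), and a fold enrichment, a ratio of IP over input. The largest FDR was 0.0447 in *Wtap* flox/flox versus 0.0479 in *Wtap*-BKO. An FDR given as 0 (147 and 83 peaks) ranked first. Read totals are not in the lists, so the depth is unknown. The library kit is not stated to keep strand.

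From the lists, peaks were matched, ranked and placed with Python 3.11.15, numpy 2.4.6, pandas 2.3.3 and scipy 1.17.1, and plotted in matplotlib 3.10.9. The matching was tried on a list made from the *Wtap* flox/flox peaks themselves, each kept, shortened or removed. All 18400 of 18400 counted as right. Removed peaks counted as right in any case, so this shows only that kept and shortened copies were found. False matches, and matching between separately called lists, were not tested. Gene spans came from the RefSeq table of GRCm38.p6. Of all peaks with their gene in the table, 98.3% and 98.2% had their middle inside its span, as did 54 of 58 and 46 of 47 carrier peaks. Every member with a peak is counted and, apart from 1 gene that is not reported here or drawn, named by role. Full values are given for *Ucp2*, *Ucp3*, *Slc25a4*, *Slc25a5*, *Slc25a20*, *Slc25a25* and *Slc25a44*, for genes in 1 list only, for peaks with an FDR under 1e-05 that were not found and for the genes with most peaks, the others by range or rank. The members, roles and marker lists were chosen with earlier results of these data known. Alternatives were another overlap, another FDR threshold, another window and another measure of strength. Supplementary tables of the study were not used.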

Additional observations from a re-analysis of the deposited data

How the results depend on the processing

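The results rest on 1 pooled sample per genotype of unknown depth, so no replicate could be left out. No paired analysis was possible because each genotype had 1 IP and 1 input and no result came from a test. When any peak of the gene counted, position was ignored and the share of carrier peaks found went from 60.3% to 87.9% in *Wtap* flox/flox, and from 78.7% to 93.6% in *Wtap*-BKO. Asking for 50% of the bases gave 50% and 74.5%. With an FDR under 1e-05, searched among all peaks of the other list, the *Wtap*-BKO share was 96.7%, where 15.4% of all such peaks were not found. At 1e-05 in both lists no gene remained in *Wtap*-BKO only, 0 where the lists gave 3. Apart from the 15.4%, the alternative values above are for carriers only. Without the same share over all peaks or genes, they do not show whether carriers differ from other genes. Under 1e-05 the *Wtap*-BKO peaks numbered 30 and not 47, and under 1e-20 the *Wtap* flox/flox peaks numbered 19 and not 58, and the *Wtap*-BKO peaks 11. The share of peaks at the 3′ end fell with a window of 500 bp to 16.7% in *Wtap* flox/flox versus 13.0% in *Wtap*-BKO, and reached 45.7% in *Wtap*-BKO with 2000 bp. Of the matched 5′ peaks, 63.6% ranked higher in *Wtap*-BKO by fold enrichment, where 100% did by FDR rank and 81.8% by FDR itself, and the cause was not tested. The alternatives on rank by place were chosen after the data were seen. In all, 11 of the other values tried counted as moved and 34 did not. Those 34 still include changes such as 31.5% to 44.4% for the 3′ share in *Wtap* flox/flox. The planned share of peaks with the GGAC motif was not run, because it needs a genome sequence, which was not used here.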
